A study of Homo sapiens with 9 samples.

Results

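The genes described here encode the plasminogen activators PLAU and PLAT, the urokinase receptor PLAUR, the serpins SERPINE2 and SERPINB2, tissue factor (F3), its inhibitor TFPI, the related inhibitor TFPI2, and thrombomodulin (THBD). They were chosen by gene name, as a marked trait of an invasive breast cancer line, and the 9 genes were found once each among the 61552 genes listed. All 9 were among the 16570 genes with enough reads to be tested. Plasmin, the protease that dissolves fibrin and degrades matrix, is cut from plasminogen by urokinase (PLAU) or tissue-type activator (PLAT). PLAUR holds urokinase at the cell surface, and serpins such as SERPINE2 and SERPINB2 block the activators by a covalent trap. Clotting starts when tissue factor binds factor VII, which TFPI restrains, whereas THBD turns thrombin into an activator of the anticoagulant protein C.

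MDA-MB-231, an established human triple-negative breast cancer (TNBC) line labelled WT, was grown in DMEM with serum and exposed for 24 h to phosphate-buffered saline (control, 0 mM), 10 mM or 20 mM of 2-deoxy-D-glucose (2-DG). Cells import and phosphorylate 2-DG, an analogue of glucose, but cannot metabolise it further, and it also disturbs N-glycosylation. RNA-seq was performed on 3 libraries per condition, and the comparisons ask how these genes respond to a block of glycolysis in a study of lactate levels. Levels are given in FPKM, which scales the reads of a gene by its length and by the library total. Orders and ratios of different genes therefore depend on the length used for each gene. Means are given ± the SD over the libraries of a condition (n = 3). RNA was extracted from 3 replicates per condition, and whether these were separate cultures is not stated, so the p-values measure the spread between these libraries, which may be technical.

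The library totals, recovered from the FPKM values, lay between 30974968 and 40843638, and replicates correlated at 0.989 to 0.996 (Pearson, across genes). All 5 markers of the mesenchymal MDA-MB-231 state (VIM, CD44, MSN, AXL and CAV1) were at 10 FPKM or more in the 9 libraries. Their summed level was 802 to 820 FPKM in the control, 718 to 786 at 10 mM and 726 to 754 at 20 mM 2-DG. The treated libraries were thus below the control range. Of 6 markers low in this line, ESR1, PGR and CDH1 were under 1 FPKM throughout, while ERBB2, GATA3 and EPCAM were above it, and the summed level of the 6 was 14.3 to 16.2 FPKM in the control, 9.93 to 11.4 at 10 mM and 9.63 to 10.2 at 20 mM 2-DG. Lists for cells that also express these proteins were low. The summed level of 5 endothelial markers was 1.76 to 2.46, 1.58 to 1.85 and 1.37 to 1.43 FPKM, with 4 of the 5 under 1 FPKM in all libraries (PECAM1 was the exception) and CDH5 at 1 read in all. For 5 leukocyte markers it was 2.58 to 4.14, 1.76 to 2.87 and 1.19 to 1.88 FPKM, with 4 of the 5 under 1 FPKM (CD14 was the exception), and for 3 platelet markers it was at most 0.0899 FPKM, with PPBP at 0. The endothelial and leukocyte sums overlapped the control at 10 mM and were below it in every 20 mM library, and their part in the results was not tested.

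Promoter windows were compared for genes that moved in different directions, because the comparison of members rests on which ones fell, rose or stayed within their spread. The RefSeq table of GRCh38.p14 held 9 windows for 7 of the members, each 250 bases before to 50 bases after a start site, and none was shown for PLAT or THBD. The 5 windows printed here are from F3 and PLAU, which fell, from PLAUR, which was not called, and from SERPINE2 and TFPI2, which rose. They lie at chr1:94541710-94542009 (minus strand), chr10:73910882-73911181 (plus strand), chr19:43670120-43670419 (minus strand), chr2:224031429-224031728 (minus strand) and chr7:93890704-93891003 (minus strand). Sequences run 5′ to 3′ along the gene, and capitals mark every match, on either strand, to any of 4 motifs. The AP-1 site bound by the JUN and FOS factors was searched as TGANTCA. The motif of the factor NF-Y was searched as CCAAT. For the GC box of SP1 and its relatives the letters were GGGCGG. The E-box of the basic helix-loop-helix factors was searched as CACGTG.
F3: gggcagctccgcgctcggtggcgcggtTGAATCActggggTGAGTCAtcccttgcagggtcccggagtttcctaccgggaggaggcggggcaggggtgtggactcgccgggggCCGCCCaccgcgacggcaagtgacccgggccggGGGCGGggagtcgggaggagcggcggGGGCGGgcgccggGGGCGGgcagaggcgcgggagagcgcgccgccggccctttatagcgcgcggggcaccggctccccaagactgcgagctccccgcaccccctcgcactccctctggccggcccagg
PLAU: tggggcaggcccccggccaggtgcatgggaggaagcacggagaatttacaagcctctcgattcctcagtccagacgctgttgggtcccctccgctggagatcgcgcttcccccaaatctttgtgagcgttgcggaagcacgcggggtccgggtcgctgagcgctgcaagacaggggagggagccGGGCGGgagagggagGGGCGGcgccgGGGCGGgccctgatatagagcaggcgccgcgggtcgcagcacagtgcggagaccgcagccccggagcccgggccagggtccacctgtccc
PLAUR: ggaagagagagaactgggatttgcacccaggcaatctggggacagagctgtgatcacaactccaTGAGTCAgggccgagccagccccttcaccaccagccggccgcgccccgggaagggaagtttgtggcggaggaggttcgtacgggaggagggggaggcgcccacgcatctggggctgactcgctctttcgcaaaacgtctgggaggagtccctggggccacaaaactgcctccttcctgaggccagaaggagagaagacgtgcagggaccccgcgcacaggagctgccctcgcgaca
SERPINE2: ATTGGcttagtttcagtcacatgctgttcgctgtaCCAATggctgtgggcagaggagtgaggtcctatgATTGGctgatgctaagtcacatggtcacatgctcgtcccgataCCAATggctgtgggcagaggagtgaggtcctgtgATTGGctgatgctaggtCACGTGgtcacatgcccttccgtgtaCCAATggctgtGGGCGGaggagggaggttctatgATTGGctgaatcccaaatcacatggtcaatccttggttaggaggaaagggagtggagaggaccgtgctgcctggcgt
TFPI2: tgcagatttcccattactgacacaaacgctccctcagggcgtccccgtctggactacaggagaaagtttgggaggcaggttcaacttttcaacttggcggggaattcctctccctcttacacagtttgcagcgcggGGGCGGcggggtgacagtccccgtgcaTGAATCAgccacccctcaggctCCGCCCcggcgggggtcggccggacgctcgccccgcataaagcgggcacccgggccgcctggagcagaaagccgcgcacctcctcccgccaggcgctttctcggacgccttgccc

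The F3 window held AP-1 matches at 223 and 210 bases before the start site and GC boxes at 137, 104, 78 and 65 bases. The PLAU window held GC boxes at 66, 51 and 40 bases, and a second PLAU window in the table, with its start at 73910610, held a CCAAT box at 182 bases. PLAUR had an AP-1 match at 186 bases, and TFPI2 had an AP-1 match at 87 bases and GC boxes at 114 and 65 bases. In SERPINE2, CCAAT boxes on alternating strands stood at 250, 215, 181, 138, 104, 61 and 27 bases, with an E-box at 87 and a GC box at 50 bases. A second SERPINE2 window, with its start at 224038640, held only GC boxes, at 230 and 183 bases, the SERPINB2 window held an AP-1 match at 102 bases, and the TFPI window held none of the 4 motifs. No matches overlapped in the windows printed. An AP-1 match was present in 4 of the 9 windows, a CCAAT box in 2, a GC box in 5 and an E-box in 1, while among all 35116 windows of the table the shares were 7.71%, 34.6%, 45% and 7.26%. A match is a description of the letters only. The FPKM values are per gene and do not say which start site was used.

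Seen over both doses, the urokinase and tissue-type activators and tissue factor fell, SERPINE2 and TFPI2 rose, TFPI fell less, and the receptor PLAUR and the thrombin cofactor THBD were not called. A gene was called at an adjusted p under 0.05 (limma's moderated test on log2(FPKM + 1), Benjamini-Hochberg over the 16570 genes). At 10 mM 2-DG against the control, 2 members were higher, 4 lower and 3 not called, where 12.1% of all genes tested were called higher and 17.5% lower. At 20 mM, 3 members were higher, 4 lower and 2 not called, where 15.4% of the genes tested were higher and 21.6% lower. The median log2 fold change of the members was -0.06 at 10 mM and 0.13 at 20 mM, and that of all genes tested was -0.01 and -0.02. Both doses were compared with the same 3 control libraries, so the doses are not independent of each other. RNA was measured from bulk cultures, in which fewer cells of a type and less RNA per cell cannot be told apart.

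**Figure D1:**
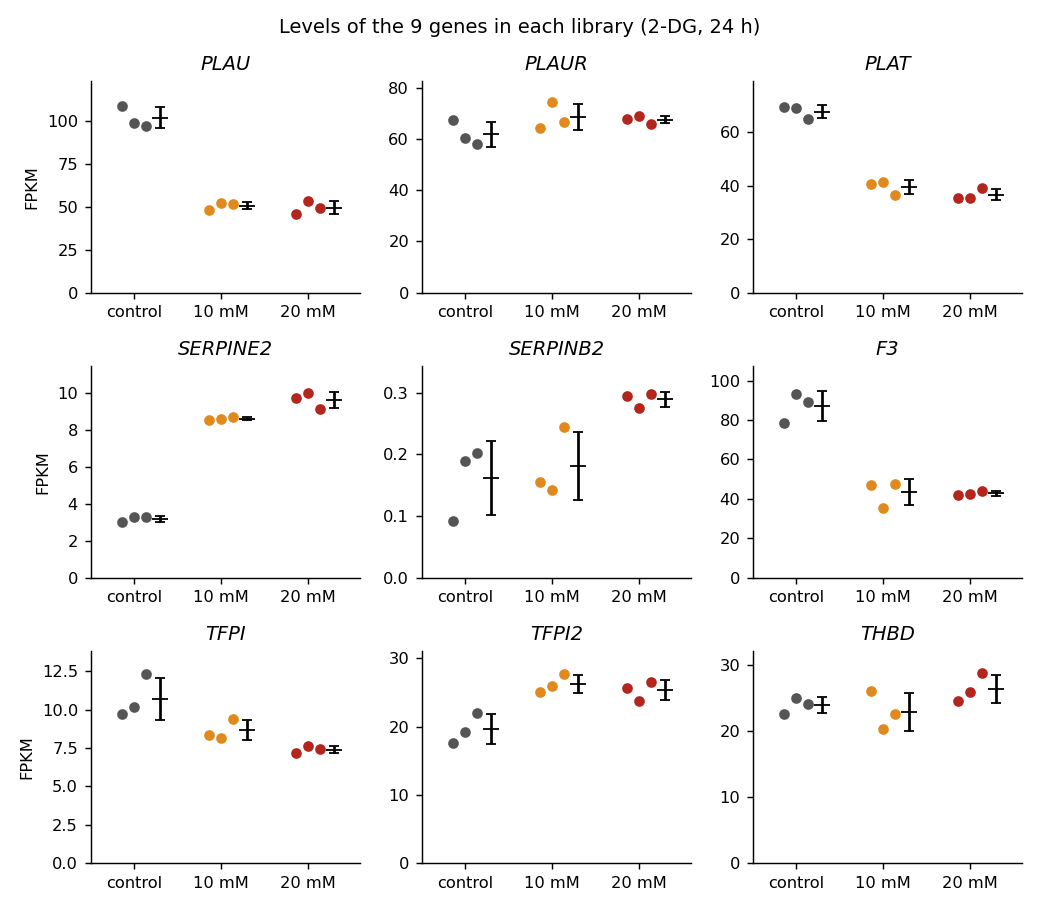
Level of each of the 9 genes in FPKM (y axis, each panel from 0) in the control, 10 mM and 20 mM 2-DG libraries (x axis). Points are libraries, and the bars give the mean and SD of 3. The treated libraries of PLAU, PLAT and F3 lay below all control libraries, and those of SERPINE2 and TFPI2 above.

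PLAU (ENSG00000122861), on chromosome 10 from 73909177 to 73917497 (plus strand), encodes urokinase. It had the highest FPKM of the 9 genes in the control, at 109, 98.9 and 97.3. It stood at 48.3, 52.5 and 51.5 FPKM at 10 mM and at 45.7, 53.2 and 49.2 FPKM at 20 mM 2-DG. The first place rests on the lengths used, recovered as 2949 bases for PLAU and 7770 for PLAT. In control reads PLAT was higher, at 56151 against 31937 for PLAU. Every treated library was below every control library. The mean fell from 102 ± 6.22 FPKM to 50.8 ± 2.19 and 49.4 ± 3.76, 2.00 and 2.06 times lower than in the control. The log2 fold change of (FPKM + 1) was -0.99 (SE 0.07, adjusted p = 1.16e-05) at 10 mM and -1.03 (SE 0.07, adjusted p = 4.99e-06) at 20 mM. In the ranking of levels among the genes tested, PLAU went from place 371 in the control to 792 and 824. Exons of PLAU share 916 bases, or 31.1% of its exon length, with C10orf55 on the opposite strand, a gene whose own level was at most 0.314 FPKM. Whether the counting used the strand is not given in the sources used here.

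PLAUR (ENSG00000011422), on chromosome 19 from 43646095 to 43670547 (minus strand), encodes the receptor of urokinase. Control libraries held 67.3, 60.4 and 58.0 FPKM, those at 10 mM 64.4, 74.3 and 66.8 FPKM, and those at 20 mM 67.9, 69.0 and 66.0 FPKM. The ranges overlapped at both doses. The log2 fold change was 0.15 (95% interval -0.02 to 0.31, adjusted p = 0.162) at 10 mM and 0.13 (95% interval -0.03 to 0.29, adjusted p = 0.191) at 20 mM. These intervals leave out a fall of the size seen for PLAU, whose own intervals were -1.14 to -0.83 and -1.19 to -0.87. The ratio of PLAU to PLAUR, ligand to receptor, was 1.62, 1.64 and 1.68 in the control libraries, 0.751, 0.707 and 0.771 at 10 mM and 0.673, 0.771 and 0.745 at 20 mM. The order of both genes in FPKM was thus reversed in every treated library. Where the ratio stands relative to 1 depends on the lengths used, and its fall within a gene pair does not. A two-sided exact permutation test of the ratio gave p = 0.10 for each dose against the control, the smallest value that 3 against 3 libraries can give. It uses the same values as the fall of PLAU and adds no separate evidence.

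PLAT (ENSG00000104368), on chromosome 8 (minus strand), encodes tissue-type plasminogen activator. Levels were 69.5, 69.1 and 65.0 FPKM in the control, 40.7, 41.4 and 36.6 FPKM at 10 mM and 35.6, 35.5 and 39.1 FPKM at 20 mM 2-DG. All treated libraries were below all control libraries, with log2 fold changes of -0.76 (SE 0.07, adjusted p = 3.42e-05) and -0.87 (SE 0.07, adjusted p = 9.19e-06). The means, 67.8 ± 2.49, 39.6 ± 2.62 and 36.7 ± 2.07 FPKM, correspond to falls of 1.71-fold and 1.85-fold. On the log2(FPKM + 1) scale, which understates low genes, 96.1% of the genes tested changed less than PLAT at 10 mM and 95.7% at 20 mM.

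Of the serpins among the members, SERPINE2 rose at both doses and SERPINB2 was called at 20 mM only. SERPINE2 (ENSG00000135919), on chromosome 2 from 223975112 to 224039319 (minus strand), encodes protease nexin 1, a serpin that blocks urokinase, tissue-type activator and thrombin. The control libraries held 3.00, 3.30 and 3.29 FPKM, against 8.56, 8.60 and 8.74 FPKM at 10 mM and 9.75, 10.0 and 9.17 FPKM at 20 mM 2-DG. The groups did not overlap, and the treated means were 2.70 and 3.02 times the control mean. The log2 fold change was 1.20 (SE 0.07, adjusted p = 3.16e-06) at 10 mM and 1.34 (SE 0.07, adjusted p = 7.07e-07) at 20 mM. On this log2(FPKM + 1) scale, which understates low genes, SERPINE2 was 52nd and 57th from the highest among the genes tested. Between the doses all 20 mM libraries were above all 10 mM libraries, but the difference of 0.14 (95% interval -0.00 to 0.29) had an adjusted p of 0.738. The SERPINE2 window with its row of CCAAT boxes, printed above, is 1 of the 2 listed for this gene, and the other holds 0 CCAAT boxes. Any part of these motifs in the rise was not tested.

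SERPINB2 (ENSG00000197632), on chromosome 18 from 63871692 to 63903890 (plus strand), encodes plasminogen activator inhibitor 2 and had few reads. It had 9, 19 and 19 reads in the control libraries (0.0924, 0.189 and 0.202 FPKM), 15, 16 and 23 reads at 10 mM (0.156, 0.143 and 0.244 FPKM) and 25, 30 and 27 reads at 20 mM (0.294, 0.275 and 0.298 FPKM). The 10 mM libraries overlapped the control, and the 20 mM libraries were above it. At 20 mM the call was higher, with a log2 fold change of 0.15 (SE 0.05, adjusted p = 0.0391), while limma-voom on the recovered reads gave 0.90 (adjusted p = 0.112), and the call was also lost without any 1 of the 20 mM libraries or without control replicate 1 or 2 (adjusted p from 0.0544 to 0.134). At 10 mM the log2 fold change was 0.02 (95% interval -0.09 to 0.14, adjusted p = 0.756). SERPINB2 shares 547 exon bases (19.9%) with SERPINB10 on the same strand, which was listed at 0 in all libraries.

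Urokinase and the serpin that rose can be set side by side within each library. PLAU over SERPINE2 was 36.3, 30.0 and 29.6 in the control libraries, 5.65, 6.11 and 5.90 at 10 mM and 4.69, 5.31 and 5.37 at 20 mM, with means of 32.0 ± 3.77, 5.88 ± 0.229 and 5.12 ± 0.379. The ratio was lower in all 6 treated libraries than in any control library. This follows from the fall of PLAU and the rise of SERPINE2, with which the pair was set. The two-sided exact permutation test against the control therefore had to give its smallest possible p of 0.10 at each dose, and it adds no evidence. It was also lower in every 20 mM library (4.69 to 5.37) than in every 10 mM library (5.65 to 6.11; exact permutation p = 0.10). These are ratios of transcripts and not of protein or activity.

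**Figure D2:**
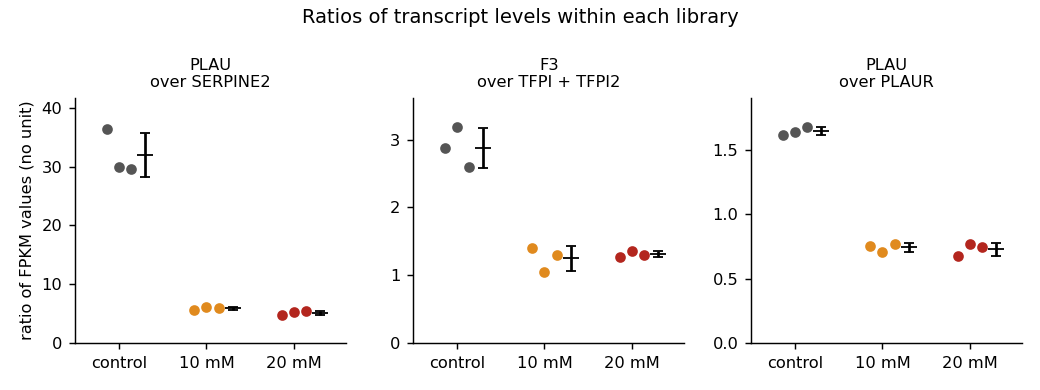
Ratios of FPKM values within each library (y axes, no unit, from 0) in the control, 10 mM and 20 mM 2-DG libraries (x axis). Points are libraries, and the bars give the mean and SD of 3. In each panel the 6 treated libraries lie below the 3 control libraries, and PLAU over PLAUR crosses from above 1 to below 1.

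On the side of coagulation, the initiator F3 fell at both doses. F3 (ENSG00000117525), on chromosome 1 from 94529225 to 94541800 (minus strand), encodes tissue factor, the membrane receptor that starts clotting. Its levels were 78.5, 93.4 and 89.0 FPKM in the control, 47.0, 35.6 and 47.8 FPKM at 10 mM and 41.8, 42.5 and 44.2 FPKM at 20 mM 2-DG. The treated and control libraries did not overlap, and the second 10 mM library was the lowest of all. The means were 87.0 ± 7.63, 43.5 ± 6.81 and 42.8 ± 1.22 FPKM, a fall of 2.00-fold and 2.03-fold. On the log2(FPKM + 1) scale F3 fell by 0.99 (SE 0.11, adjusted p = 0.000136) at 10 mM and by 1.00 (SE 0.11, adjusted p = 8.73e-05) at 20 mM.

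The inhibitors TFPI and TFPI2 moved in opposite directions. TFPI (ENSG00000003436), on chromosome 2 from 187464230 to 187565760 (minus strand), encodes the Kunitz-type inhibitor of the complex of tissue factor and factor VII. It was at 9.69, 10.2 and 12.3 FPKM in the control, 8.38, 8.18 and 9.40 FPKM at 10 mM and 7.16, 7.60 and 7.44 FPKM at 20 mM. No treated library reached the control range, and the log2 fold change was -0.27 (SE 0.09, adjusted p = 0.0442) at 10 mM and -0.47 (SE 0.09, adjusted p = 0.00264) at 20 mM. The call at 10 mM was lost with median-ratio scaling (adjusted p = 0.0602) and when any 1 of 7 libraries was left out (adjusted p from 0.0639 to 0.133), whereas it was kept without control replicate 1 or 10 mM replicate 3. The call at 20 mM was kept in each of these fits. TFPI shares 118 exon bases (1.01%) with the antisense gene AC007319.1, at most 0.483 FPKM.

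TFPI2 (ENSG00000105825), on chromosome 7 from 93885396 to 93890991 (minus strand), encodes a related Kunitz-type inhibitor that is held in the extracellular matrix and blocks plasmin and trypsin. It stood at 17.6, 19.2 and 22.0 FPKM in the control, 25.1, 25.9 and 27.7 FPKM at 10 mM and 25.7, 23.8 and 26.6 FPKM at 20 mM. All treated libraries were above the control range. The rise was 1.34-fold at 10 mM (log2 fold change 0.41, SE 0.08, adjusted p = 0.00498) and 1.29-fold at 20 mM (0.36, SE 0.08, adjusted p = 0.00711). The ratio of TFPI2 to TFPI was 1.83 ± 0.0487, 3.04 ± 0.113 and 3.43 ± 0.261, with no overlap between treated and control libraries. Opposite-strand genes share 44 (GNGT1) and 79 (AC002076.1) of its exon bases and were at most at 0 and 0.0954 FPKM.

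F3 over the sum of TFPI and TFPI2 was 2.87, 3.18 and 2.59 in the control libraries, 1.40, 1.05 and 1.29 at 10 mM and 1.27, 1.35 and 1.30 at 20 mM 2-DG. The sum includes TFPI2, which rose and which blocks plasmin and trypsin. F3 over TFPI alone, the inhibitor of its own complex, was 8.17 ± 0.969, 5.01 ± 0.629 and 5.79 ± 0.174. Both ratios were lower in all treated libraries than in the control (two-sided exact permutation test, p = 0.10, the smallest possible). Against the control, these tests use the same values as the fall of F3 and add no separate evidence. Between the doses the exact permutation p was 0.800 and 0.200.

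THBD (ENSG00000178726), on chromosome 20 from 23045633 to 23049741 (minus strand), encodes the thrombin receptor thrombomodulin, best known from endothelium. It was at 22.7, 25.1 and 24.2 FPKM in the control, 26.1, 20.3 and 22.7 FPKM at 10 mM and 24.6, 25.9 and 28.8 FPKM at 20 mM. The ranges overlapped in each comparison, with log2 fold changes of -0.06 (95% interval -0.27 to 0.14, adjusted p = 0.648) and 0.13 (95% interval -0.07 to 0.34, adjusted p = 0.294). Of the endothelial markers listed, CDH5 had 1 read in all 9 libraries, PECAM1 was at 0.826 to 1.95 FPKM and KDR at 0.262 to 0.633 FPKM, and the part of such cells in the THBD level was not tested.

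**Figure D3:**
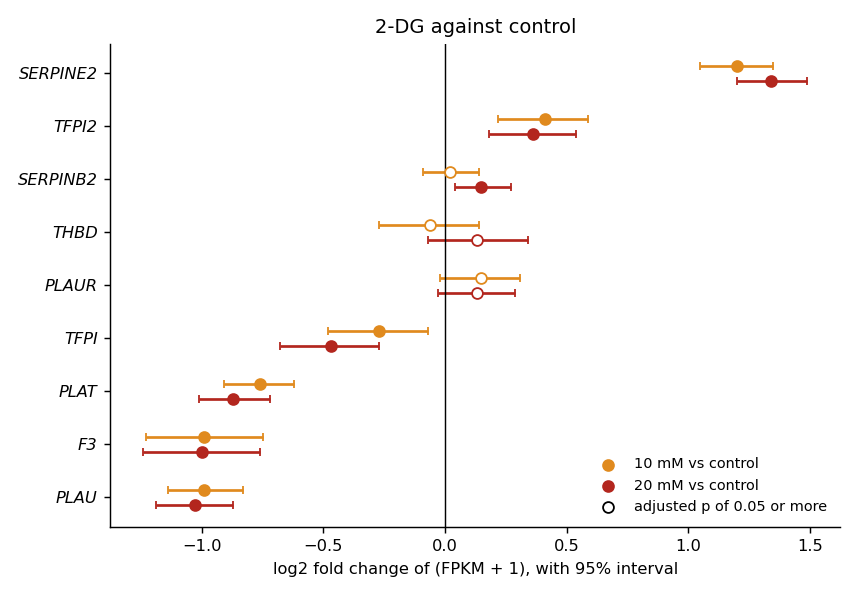
Log2 fold change of (FPKM + 1) against the control (x axis) for each of the 9 genes (y axis), at 10 mM (orange) and 20 mM 2-DG (red), with 95% intervals. Open points have an adjusted p of 0.05 or more. SERPINE2 lies at 1.20 and 1.34, PLAU and F3 lie between -1.03 and -0.99, and the intervals of PLAUR and THBD include 0.

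With the thresholds of the study for a differentially expressed gene (DEG), an unadjusted p under 0.05 with a log2 fold change beyond 1 in size, SERPINE2 was higher at both doses, PLAU and F3 were lower at 20 mM, and the other members were not called. PLAU and F3 lay at the limit at both doses, and which of them passed it depended on the processing. F3 at 10 mM was at -0.99 but at -1.01 with limma-voom or a pseudocount of 0.1, while with median-ratio scaling the values at 20 mM were -0.97 for PLAU and -0.95 for F3. Of the genes tested, 0.579% were higher and 1.16% lower by these thresholds at 10 mM, and 0.966% and 1.96% at 20 mM. Treated and control libraries did not overlap for 6 members at 10 mM and 7 at 20 mM, against 40.5% and 53.3% of all genes tested. The plot of all genes shows PLAU, PLAT and F3 in the part of the range that is both abundant and lower. On the log2(FPKM + 1) scale, which understates low genes, 97.3%, 95.7% and 97.1% of the genes tested changed less at 20 mM.

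**Figure D4:**
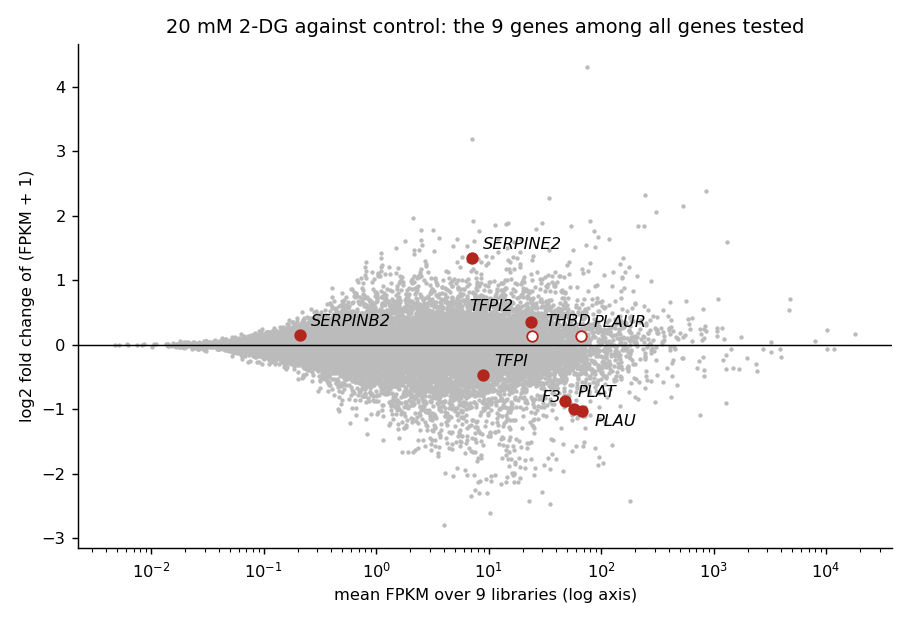
Log2 fold change of (FPKM + 1) at 20 mM 2-DG against the control (y axis) by mean FPKM over the 9 libraries (x axis, log scale) for the 16570 genes tested (grey) and the 9 genes (red, open where the adjusted p was 0.05 or more). SERPINE2 lies high at a moderate level, and PLAU, PLAT and F3 lie low at a high level.

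Between 20 mM and 10 mM 2-DG no member was called. In limma's test 0 of the 16570 genes (0%) had an adjusted p under 0.05 in this comparison and 6.88% had an unadjusted p under 0.05, with 1 member, SERPINB2, among the latter (log2 difference 0.13, unadjusted p = 0.0307). Limma-voom on the recovered reads also called 0 members, and 2 had an unadjusted p under 0.05. The differences between the doses were -0.04 for PLAU (95% interval -0.20 to 0.12), -0.01 for F3 (-0.25 to 0.23), -0.10 for PLAT (-0.25 to 0.04) and -0.05 for TFPI2 (-0.23 to 0.14). TFPI and THBD differed by -0.20 (-0.40 to 0.00) and 0.20 (-0.01 to 0.40). The libraries of both doses did not overlap for SERPINE2, SERPINB2 and TFPI, 3 of 9 members, against 11.9% of the genes tested.

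The order of the levels in FPKM also changed. In the control it was PLAU, F3, PLAT, PLAUR, THBD, TFPI2, TFPI, SERPINE2 and SERPINB2 from highest to lowest, and among neighbours only PLAT and PLAUR overlapped between libraries. At 10 mM PLAUR came first, above PLAU, then F3, PLAT, TFPI2, THBD, TFPI, SERPINE2 and SERPINB2, with overlap between F3 and PLAT, between TFPI2 and THBD and between TFPI and SERPINE2. At 20 mM the order was PLAUR, PLAU, F3, PLAT, THBD, TFPI2, SERPINE2, TFPI and SERPINB2, and THBD and TFPI2 overlapped. SERPINE2 was thus below TFPI in all control libraries (highest 3.30 against lowest 9.69 FPKM) and above it in all 20 mM libraries (lowest 9.17 against highest 7.60 FPKM).

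A list of 56 other genes of plasminogen activation and coagulation was examined in the same fit, of which 37 passed the filter on low reads. At 10 mM 2-DG, 7 of the 37 were higher, 4 lower and 26 not called, and at 20 mM 7 were higher, 6 lower and 24 not called. Over all genes tested the shares were 12.1% higher and 17.5% lower at 10 mM, and 15.4% and 21.6% at 20 mM, as above. Without 10 mM replicate 2, 7 of the list genes were lower at 10 mM in place of 4. The median log2 fold change of the 37 was -0.01 at 10 mM and -0.03 at 20 mM. Between the doses 0 were called by limma or by limma-voom, and 3 had an unadjusted p under 0.05 with each. Of the 19 genes not tested, 6 were listed at 0 in all 9 libraries, and the highest mean was 0.0480 FPKM, for PROC. Plasminogen itself (PLG) was among the 6, and 3 reads, the limit that a count of 0 allows, would give it 0.0152 FPKM in the shallowest library (counting error only).

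Most of the clotting factors listed were near 0. Of 14 coagulation factors, 4 were tested (F2, F8, F13A1 and VWF) and 0 were called at either dose by limma or limma-voom, with 0 at an unadjusted p under 0.05. These 4 had few reads, so a change could be missed. A library held 1 to 14 reads of VWF, 2 to 17 of F2, 7 to 27 of F13A1 and 46 to 84 of F8. Over all genes tested, 12.1% were called higher and 17.5% lower at 10 mM, and 15.4% and 21.6% at 20 mM. Among 9 genes of plasminogen, its inhibitors and partners, 5 were tested and SERPINB8, an intracellular serpin, was the only one called at either dose. Whether SERPINB8 acts on plasmin or its activators was not tested here. Its level rose from 3.62 ± 0.155 FPKM in the control to 7.09 ± 0.161 at 10 mM and 8.20 ± 0.749 at 20 mM, with a log2 fold change of 0.81 (adjusted p = 6.09e-05) and 0.99 (adjusted p = 1.04e-05).

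All 9 genes of plasminogen receptors and clearance were tested, and at 20 mM 3 were lower (MRC2, PLGRKT and ENO1), 1 was higher (VLDLR) and 5 were not called. Over all genes tested, 21.6% were lower and 15.4% higher at this dose. Among the 3 that were lower, ENO1 is also an enzyme of glycolysis, the pathway that 2-DG blocks. MRC2, a collagen receptor that associates with the urokinase receptor, held 9.28, 10.3 and 9.18 FPKM in the control, 4.83, 5.24 and 4.95 FPKM at 10 mM and 4.23, 4.48 and 4.20 FPKM at 20 mM. Treated and control libraries did not overlap, and MRC2 fell by 0.82 on the log2 scale at 10 mM (adjusted p = 3.81e-05) and by 1.00 at 20 mM (adjusted p = 6.57e-06). VLDLR, an endocytic receptor that clears complexes of protease and serpin, rose from 2.02 to 3.50 FPKM at 20 mM (log2 fold change 0.58, adjusted p = 0.00503). ANXA2 and S100A10, which together form a plasminogen receptor at the surface, were abundant and not called at 20 mM. Their means were 193 and 181 FPKM for ANXA2 (log2 fold change -0.09, adjusted p = 0.309) and 419 and 408 FPKM for S100A10 (-0.04, adjusted p = 0.809) in the control and at 20 mM.

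Among the anticoagulants, PROS1 and PROCR were lower and ANXA5 was higher at 20 mM, and SERPIND1 was not called. Over all genes tested, 21.6% were lower and 15.4% higher at 20 mM. PROS1, the gene of protein S, a cofactor of activated protein C, stood at 3.93, 4.11 and 5.00 FPKM in the control. At 20 mM it was at 2.06, 2.25 and 2.61 FPKM (log2 fold change -0.69, adjusted p = 0.00203). The 10 mM libraries, at 2.87, 2.87 and 3.94 FPKM, narrowly overlapped the control. At that dose limma did not call PROS1 (-0.34, adjusted p = 0.0655), whereas limma-voom on the recovered reads called it lower (-0.44, adjusted p = 0.0296). PROCR, the endothelial protein C receptor, went from 11.9 ± 1.45 FPKM to 7.78 ± 1.31 at 10 mM and 7.70 ± 0.408 at 20 mM (-0.56 at both doses, adjusted p = 0.00557 and 0.0041). ANXA5, which binds and shields phosphatidylserine, was at 281 ± 9.92, 378 ± 13.9 and 408 ± 7.21 FPKM, a log2 fold change of 0.42 (adjusted p = 0.000868) and 0.54 (adjusted p = 0.00015).

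Of the 7 genes for factor processing and membrane exposure, 3 were higher and 1 was lower at each dose. Over all genes tested, 12.1% were higher and 17.5% lower at 10 mM, and 15.4% and 21.6% at 20 mM. No role was tested as a set. XKR8, a scramblase that exposes phosphatidylserine, rose from 5.85 ± 0.480 FPKM to 10.9 ± 0.655 at 10 mM and 10.2 ± 0.592 at 20 mM (log2 fold change 0.80 and 0.71, adjusted p = 6.83e-05 and 9.59e-05). VKORC1L1, a vitamin K epoxide reductase, fell from 7.60 to 4.73 FPKM at 20 mM (-0.59, adjusted p = 0.000547). LMAN1 and MCFD2, the cargo receptor that carries factors V and VIII out of the endoplasmic reticulum, were the others called higher. Of the 4 thrombin and protease receptors, F2RL2 was called higher at 20 mM, F2R stood at 11.1 and 10.6 FPKM in the control and at 20 mM (log2 fold change -0.07, adjusted p = 0.684), and F2RL1, a receptor cleaved by trypsin and by the complex of tissue factor and factor VII, had means of 87.6 and 100 FPKM (0.20, adjusted p = 0.0611). Of 4 tested genes linked to urokinase activation (F12, HGFAC, KLKB1 and ST14), KLKB1 was called higher at 10 mM and 0 at 20 mM, where limma-voom on the recovered reads called 1 higher, HGFAC (log2 fold change 2.19, adjusted p = 0.0261). These calls rest on few reads. HGFAC had 13, 3 and 4 reads in the control libraries and 12, 67 and 18 at 20 mM. KLKB1 had 6, 6 and 6 reads in the control libraries and 27, 20 and 27 at 10 mM. F2RL2 had 8, 6 and 14 reads in the control libraries and 30, 59 and 23 at 20 mM.

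**Figure D5:**
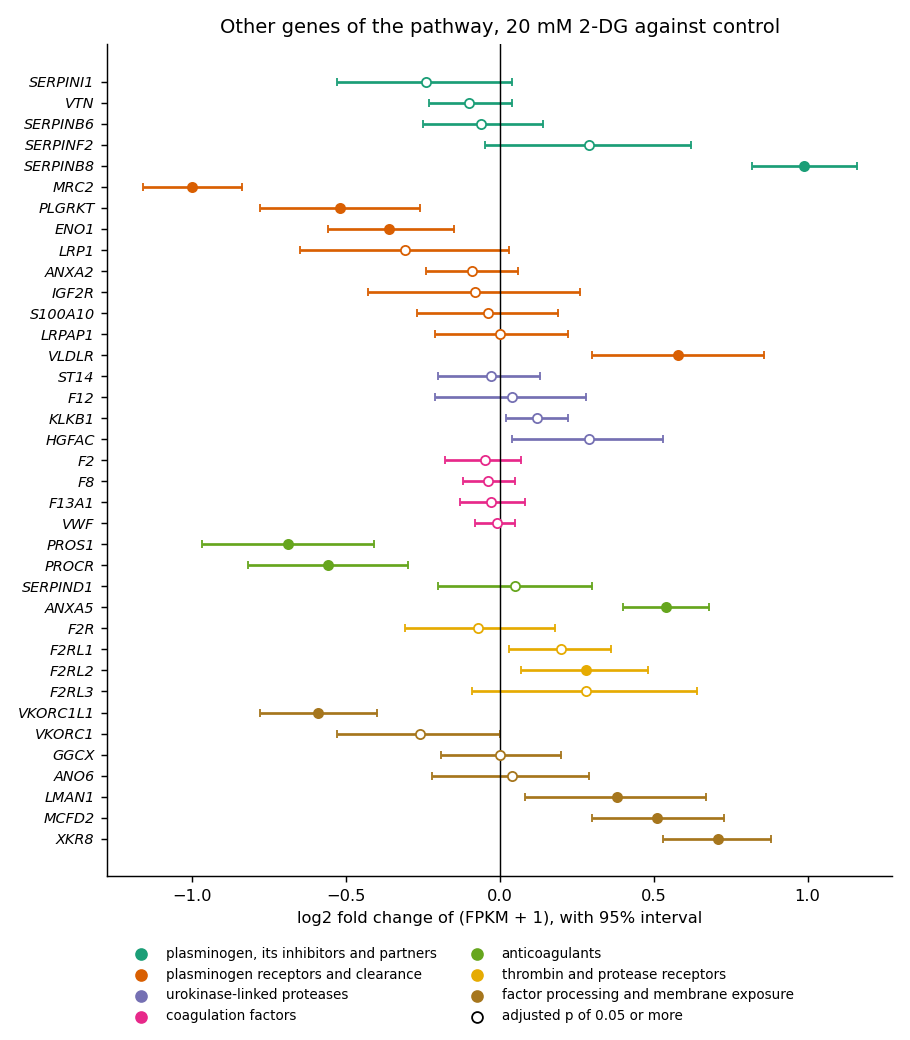
Log2 fold change of (FPKM + 1) at 20 mM 2-DG against the control (x axis) with 95% intervals for the 37 tested genes of the wider pathway (y axis), coloured by role. Filled points were called, 7 higher and 6 lower, and on this scale the largest changes were those of SERPINB8, which rose by 0.99, and MRC2, which fell by 1.00. The scale understates low genes such as F2RL2, whose mean FPKM was 3.95 times that of the control.

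The genes whose profile over the 9 libraries was most like that of PLAU were CCHCR1, MCM7 and FDPS, with root mean square differences of 0.0524, 0.0565 and 0.0669 between centred log2(FPKM + 1) values among 9810 protein-named genes. For F3 they were CKAP5, CDCA7 and KIF14, at 0.0685, 0.0835 and 0.0899. For PLAUR, whose profile was flat, they were VPS37B, CCDC92 and PDLIM7, at 0.0263, 0.0298 and 0.0302. These profiles share the libraries and the 3 group means, and the nearest genes are given as a description with no test.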

How the data were processed

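RNA from 9 libraries of MDA-MB-231 cells was analysed, 3 each at 0, 10 and 20 mM 2-DG for 24 h. The authors deposited FPKM values per gene. The submitters' processing notes name the builds GRCh38 and hg38, and the aligner, counter and annotation are not given in the sources used here. The authors called DEGs with DESeq2, which needs counts. Whole reads were therefore recovered from the FPKM steps, with exon lengths of GENCODE release 29 where these gave whole numbers within 0.01 and searched lengths otherwise (32805 of 32806 genes above 0, 99.8% to 99.9% of the totals). Whether they were reads or fragments is not known.

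A gene was tested if 3 or more libraries held 10 reads once scaled to the median depth, and all libraries together 15. Testing used limma 3.58.1 (R 4.3.3, eBayes with a trend, all libraries in a single fit, no replicate block) on log2(FPKM + 1), with Benjamini-Hochberg adjustment over 16570 genes. The pseudocount of 1 understates the change of low genes. The test was also run on simulated reads, in which only genes with many reads were changed. The spread between the simulated libraries was set and not taken from these data. That run therefore does not show how the test performs for low genes such as SERPINB2. Replicates differed by 4.75 to 58.3 times the sampling variance, so none was counted as a repeat of another. The members and lists, written from general knowledge, were chosen with earlier results of these data known. Named genes were all members, up to 4 called pathway genes per direction with the largest change at 20 mM, F2R, F2RL1, ANXA2 and S100A10, and the 3 genes of at least 1 mean FPKM most like PLAU, PLAUR and F3. Other called pathway genes, and the tested genes of a role, are named to complete a count, and were chosen after their values were seen. Gene positions are from GENCODE release 29 (GRCh38), promoter windows from RefSeq (GRCh38.p14). Scaling, pseudocount, filter, test, threshold, replicate block and libraries were varied as alternatives. A further gene of the pathway list is not reported here.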

Additional observations from a re-analysis of the deposited data

How the results depend on the processing

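With the thresholds of the study, which add a log2 fold change over 1, 1 member was called higher and 0 lower at 10 mM, and 1 higher and 2 lower at 20 mM 2-DG, and 0 pathway genes were called in either direction at either dose. The 0 rests on the pseudocount of 1. Limma-voom passed SERPINB8 (1.17), MRC2 (-1.15), HGFAC (2.19) and F2RL2 (2.00) at 20 mM and KLKB1 (1.87) at 10 mM. These had a log2 fold change beyond 1 at an adjusted p under 0.05, which is stricter than the rule of the study. At the unadjusted p of the study, HGFAC (1.91) and F2RL2 (1.62) at 10 mM and KLKB1 (1.26) at 20 mM passed as well. Leaving out 1 library at a time gave 2 members higher and 3 to 4 lower at 10 mM, and 2 to 3 higher and 4 lower at 20 mM. For the pathway list it gave 5 to 7 higher and 3 to 7 lower at 10 mM, with 7 lower without 10 mM replicate 2, and 5 to 8 higher and 5 to 7 lower at 20 mM. Directions turned only for differences that were not called. Between the doses, median-ratio factors gave 0.01 for F3 and 0.00 for PLAUR on the log2 scale, and leaving out 1 library gave -0.14 to 0.06 for F3, -0.06 to 0.04 for PLAUR and -0.10 to 0.01 for PLAU. At 10 mM against the control it gave -0.02 to 0.05 for SERPINB2 and -0.15 to 0.02 for THBD. The cause was not tested. The higher call of SERPINB2 at 20 mM was lost with limma-voom (adjusted p = 0.112), with no filter (0.109) and with a pseudocount of 0.1 (0.0553), and SERPINB2 is not tested where 1 FPKM is required. The call of TFPI at 10 mM was lost with no filter (0.0934).

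Deviations from the group means correlated between -0.41 and 0.29 for libraries with the same number and between -0.23 and 0.52 for other pairs, with the highest values for control replicate 1 with 10 mM replicate 2 (0.52) and control replicate 2 with 10 mM replicate 1 (0.49). Not every library correlated best with its own number, so the numbers were not taken to pair the libraries. With the replicate block 2 members were higher and 4 lower at 10 mM, 3 higher and 4 lower at 20 mM and 0 between the doses, and no call of a member changed. The block uses these numbers, so it cannot show how the calls would stand under another pairing. For the pathway list the block gave 5 higher and 5 lower at 10 mM, and 5 higher and 6 lower at 20 mM. At these depths precision is limited for SERPINB2, at 9 to 30 reads a library, and with 3 libraries a group the exact permutation test cannot go below p = 0.10.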
